A study of Zygosaccharomyces bailii with 18 samples.

Results

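Permeases bring nitrogen sources and phosphate into the yeast cell, and 10 ORFs of *Z. bailii* IST302 with such homologues are described here, of 1701 ORFs listed in at least 1 of the 6 deposited tables. They are all ORFs that the study's supplementary tables pair with one of 9 *S. cerevisiae* names: *GAP1* (ZBIST_2040), *PUT4* (ZBIST_1551), *BAP3* (ZBIST_2830), *CAN1* (ZBIST_4270), *OPT1* (ZBIST_4988), *DAL5* (ZBIST_5094), *MEP3* (ZBIST_2243), *FCY2* (ZBIST_2477 and ZBIST_3560) and *PHO84* (ZBIST_4159). The members were chosen by name from lists that hold only genes past a measured fold change and FDR, so that each of them is listed somewhere is set by the choice and is no finding. The deposited tables of *Zbhaa1*∆ with and without acetic acid and of both strains unstressed have no counterpart in the supplementary tables. An ORF listed only there has no homologue name and could not become a member.

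Reads from the 3' ends of mRNA were collected for 18 cultures in 6 groups of 3. They comprised the prototrophic parental strain IST302 and its derived deletion mutant *Zbhaa1*∆, which lacks the gene of the transcription factor ZbHaa1, each unstressed, exposed to 140 mM acetic acid or exposed to 0.08 mM copper. Every culture grew in glucose mineral medium at pH 4.0 with ammonium sulfate as the nitrogen source, the cells stressed for 1 hour were collected 1 hour after the unstressed ones, and both strains passed through this scheme. Stress and the additional hour of growth cannot be told apart. Each table gives, for a pair of groups, the average level of each gene in log2 CPM, read counts relative to library size, over 6 libraries, beside the fold change and FDR of the comparison, which are not used here. No value per library or per group was used, so the averages carry no replicate error, the tables give no depth per library, no difference was tested, and the descriptions below say nothing of the effect of a single stress. Levels from different tables were normalised separately by the authors.

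In *S. cerevisiae*, many but not all nitrogen permease genes are under nitrogen catabolite repression. On a rich source such as ammonium or glutamine their transcription by GATA factors such as Gat1 is held back, and on poor sources it is released. Amino acids sensed outside the cell act in addition through the SPS sensor and the Stp factors on *BAP3* and related genes. The permeases themselves are removed from the plasma membrane by ubiquitination, for which Bul1 is an adaptor. *PHO84* belongs to the phosphate regulon, which Pho4 switches on when phosphate is scarce.

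Among the listed averages of the members, the highest was that of *GAP1*, the general amino acid permease. Its authors' average was 8.14 log2 CPM, or 282 CPM, over unstressed and acetic acid-treated parental cells, and 8.04 log2 CPM, or 262 CPM, over the same pair of conditions in *Zbhaa1*∆. Above it stood 26 of 297 genes in the parental and 42 of 268 in the mutant table. The purine and cytosine permease ORF *FCY2* (ZBIST_2477) followed with 7.72 log2 CPM (210 CPM) in the parental and 7.34 log2 CPM (162 CPM) in the mutant average. Both ORFs thus lay in the upper part of their tables, with 90.9% and 87.9% of the listed genes of the parental table below them.

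The order of the 8 members in the parental table of unstressed and acetic acid-treated cells spanned 4.71 log2 units, a 26.2-fold range. After *GAP1* and *FCY2* came *MEP3*, an ammonium permease, at 6.11 log2 CPM (69.3 CPM). *BAP3*, a permease for branched-chain amino acids, stood at 5.48 log2 CPM (44.5 CPM) and *PUT4*, the proline permease, at 4.96 log2 CPM (31.1 CPM). The lowest were the phosphate transporter gene *PHO84* at 4.29 log2 CPM (19.5 CPM), the arginine permease gene *CAN1* at 4.03 log2 CPM (16.3 CPM) and the oligopeptide transporter gene *OPT1* at 3.43 log2 CPM (10.8 CPM). The smallest step, 0.26 log2 units, separated *PHO84* from *CAN1*, and the largest, 1.60, separated *FCY2* from *MEP3*. Without replicate error it cannot be said which neighbours differ. The 3' tag method reads the end of each mRNA, so CPM were compared between genes without division by gene length.

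The table of the same conditions in *Zbhaa1*∆ held 7 of the 10 members, all of those above except *OPT1*. *MEP3* stood at 6.09 log2 CPM, *BAP3* at 5.38, *PUT4* at 4.68, *CAN1* at 4.41 and *PHO84* at 4.11. The first 5 places were taken by the same genes in the same order as in the parental strain, while *CAN1* and *PHO84* had changed places. The median was 5.38 log2 CPM over the 7 members of the mutant table and 5.22 over the 8 of the parental table. These medians do not compare the strains, since only the parental one includes *OPT1*, the lowest member. Among the 7 members in both tables *BAP3* held the middle place, at 5.48 in the parental and 5.38 in the mutant table. Over all listed genes the medians were 4.61 in the mutant and 4.76 in the parental table, and 5 members lay above the median of their table in either strain.

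**Figure D1:**
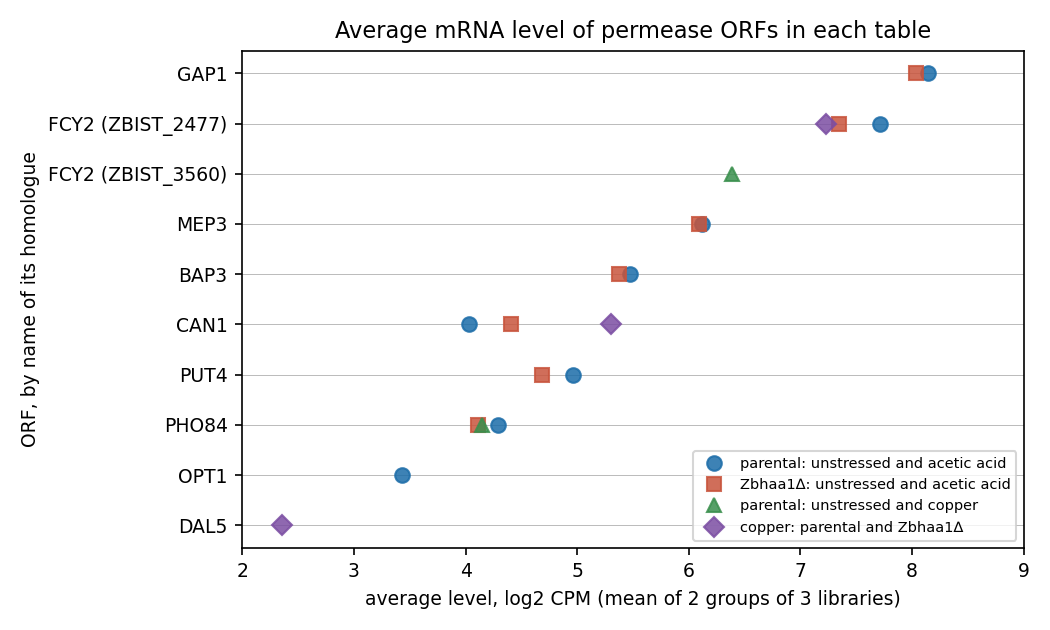
Average level of each of the 10 permease ORFs (x axis, log2 CPM) in each table that lists it; each point is the authors' mean over 2 groups of 3 libraries, and colour and shape give the groups. *GAP1* lies at 8.14 and 8.04, *DAL5* at 2.36, and the points of *CAN1* are spread widest, from 4.03 to 5.30.

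The tables listed the members unevenly. The table of parental cells with and without acetic acid held 8 of the 10, that of *Zbhaa1*∆ with and without acetic acid 7, that of both strains in copper 3 and that of parental cells with and without copper 2. The tables of both strains in acetic acid and of both strains unstressed held 0. Of 5141 annotated protein-coding genes, the same 6 tables listed 5.76%, 5.21%, 25.2%, 3.68%, 1.07% and 0.253%, in this order. These shares are of annotated genes, since the number the authors tested is not in the tables, and the members' counts cannot be read against them because listing chose the members. Nor do the counts of 8 and 7 compare the strains, since ORFs listed only for *Zbhaa1*∆ with and without acetic acid have no name. Where a table lacks an ORF, the thresholds or the filter on low counts left it out, and no level can be given for it. In all, 3 members were listed once, 4 in 2 tables and 3 in 3 tables.

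The 4 members listed in exactly 2 tables, *GAP1*, *PUT4*, *BAP3* and *MEP3*, were in those 2 acetic acid tables and no other. *OPT1* was listed for the parental strain in acetic acid alone. *DAL5*, the allantoate and ureidosuccinate permease, was listed only for both strains in copper, at 2.36 log2 CPM (5.12 CPM), and 13 of 1301 genes stood below it. It was the lowest value of any member in any table. The second *FCY2* ORF, ZBIST_3560, was listed only for parental cells with and without copper, at 6.39 log2 CPM (83.9 CPM), with 44.2% of 190 genes below it. No table held both *FCY2* ORFs, so their levels were not measured side by side here.

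Because unstressed and acetic acid-treated cells enter both acetic acid tables in the same way, the difference of the averages compares the strains over these 2 conditions together. *CAN1* was the 1 member of 7 with the higher average in *Zbhaa1*∆, 21.2 CPM against 16.3 CPM in the parental strain, a difference of 0.38 log2 units. Of the 124 genes in both tables, 1 had a larger positive difference than *CAN1* and 122 had a lower value. The other 6 members had the lower average in the mutant. *FCY2* (ZBIST_2477) was farthest below, with -0.37 log2 units, followed by *PUT4* with -0.28 (25.7 CPM against 31.1 CPM) and *PHO84* with -0.18 (17.2 CPM against 19.5 CPM).

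For *GAP1*, *BAP3* and *MEP3* the strains lay close together, at -0.11, -0.10 and -0.02 log2 units, and these signs turn to 0.02, 0.03 and 0.11 once the shift of all shared genes is taken off. That shift, the median over the 124 genes, was -0.13 log2 units, with quartiles of -0.32 and -0.01, and 95 genes (76.6%) had the lower average in the mutant. Relative to it *CAN1* stood at 0.50, *FCY2* at -0.25, *PUT4* at -0.15 and *PHO84* at -0.05. Thus 6 of 7 members were lower as deposited and 3 of 7 relative to the shared genes. The 124 genes are all past the authors' thresholds in both strains and are not a sample of the genome. Since no library values enter, whether any of these differences exceeds the spread between replicates was not tested.

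**Figure D2:**
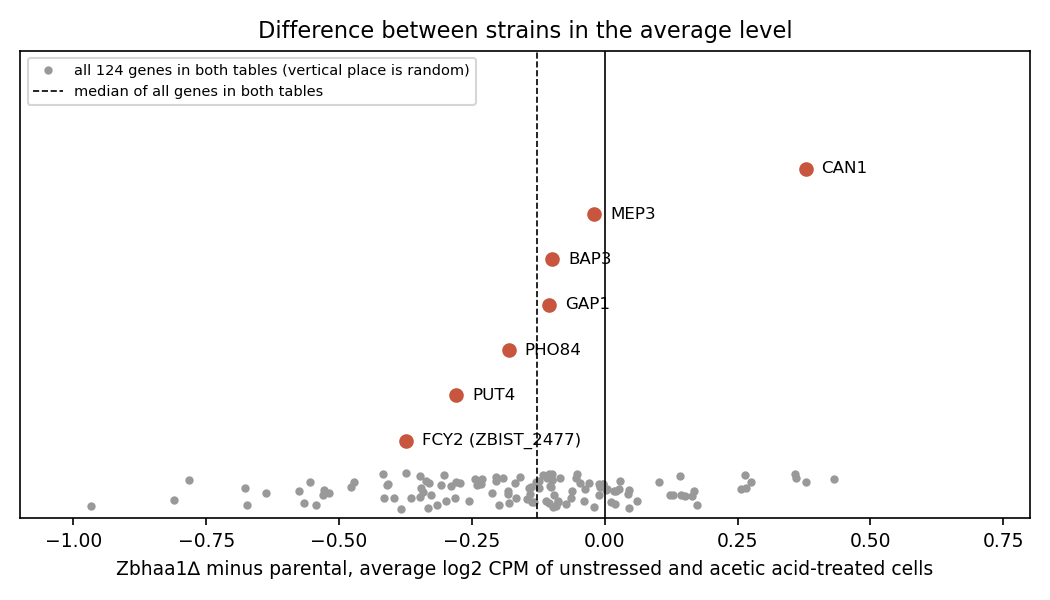
Difference of the authors' averages, *Zbhaa1*∆ minus parental strain (x axis, log2 CPM), each over unstressed and acetic acid-treated cells: 7 permease ORFs in red by name, and all 124 genes in both tables in grey below. The solid line marks 0 and the dashed line the median of the 124 genes, -0.13; *CAN1* at 0.38 is the only named ORF right of 0.

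*CAN1*, the plasma membrane permease for arginine, also had the widest span between tables. Its average over both strains in copper was 39.5 CPM (5.30 log2 CPM), against 16.3 CPM over unstressed and acetic acid-treated parental cells and 21.2 CPM over the corresponding mutant cells. Taking both strains together, 6 copper libraries averaged 39.5 CPM and 12 unstressed and acetic acid libraries 18.8 CPM, a ratio of 2.10 or 1.07 log2 units. Over the 35 genes listed in all 3 tables the median was -0.06 log2 units, and 5 genes had a higher value than *CAN1*. These 35 genes, *CAN1* among them, are past the authors' thresholds in each table, also in that comparing the strains in copper. They are not a sample of the genome, so the place of *CAN1* among them is a description only. Against single strains the copper average was 1.27 log2 units above the parental and 0.90 above the mutant average, and 0.96 and 1.05 relative to the genes shared with each table. How the copper average divides between the strains cannot be read from it.

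*FCY2* (ZBIST_2477) differed in the opposite sense. Its average was 150 CPM (7.23 log2 CPM) over both strains in copper, against 186 CPM over the 12 unstressed and acetic acid libraries, a ratio of 0.806 or -0.31 log2 units. Below it lay 68.8% of the 1301 genes listed for both strains in copper, against 26.8% for *CAN1*. Set against single strains, the copper average of *FCY2* was 0.49 log2 units below the parental average (-0.49), and -0.11 from that of *Zbhaa1*∆. Relative to the shared genes, 71 with the parental and 81 with the mutant table, these values become -0.80 and 0.04. Those sets likewise hold only genes past the authors' thresholds in both tables.

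*PHO84*, the high-affinity phosphate and proton symporter gene, was the only member in both tables of the parental strain. Its average was 19.5 CPM over unstressed and acetic acid-treated cells and 17.7 CPM over unstressed and copper-treated cells. The same unstressed libraries enter both averages, but each table was normalised on its own, so scaling and the stressed cells cannot be told apart in the difference. Among the 34 genes in both parental tables the log2 difference of *PHO84*, copper minus acetic acid table, was -0.15 beside a median of -0.01. Each of the 34 genes is past the authors' thresholds in both tables. In the table with copper, 19 of 190 genes stood below it, and in that with acetic acid 112 of 297. The 3 averages of *PHO84* lay between 17.2 and 19.5 CPM. This range cannot be set beside the full range of *CAN1*, whose highest average is over both strains in copper, where *PHO84* is not listed. In the 2 acetic acid tables, which hold both ORFs, *CAN1* was at 16.3 CPM (parental) and 21.2 CPM (*Zbhaa1*∆) and *PHO84* at 19.5 and 17.2 CPM.

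**Figure D3:**
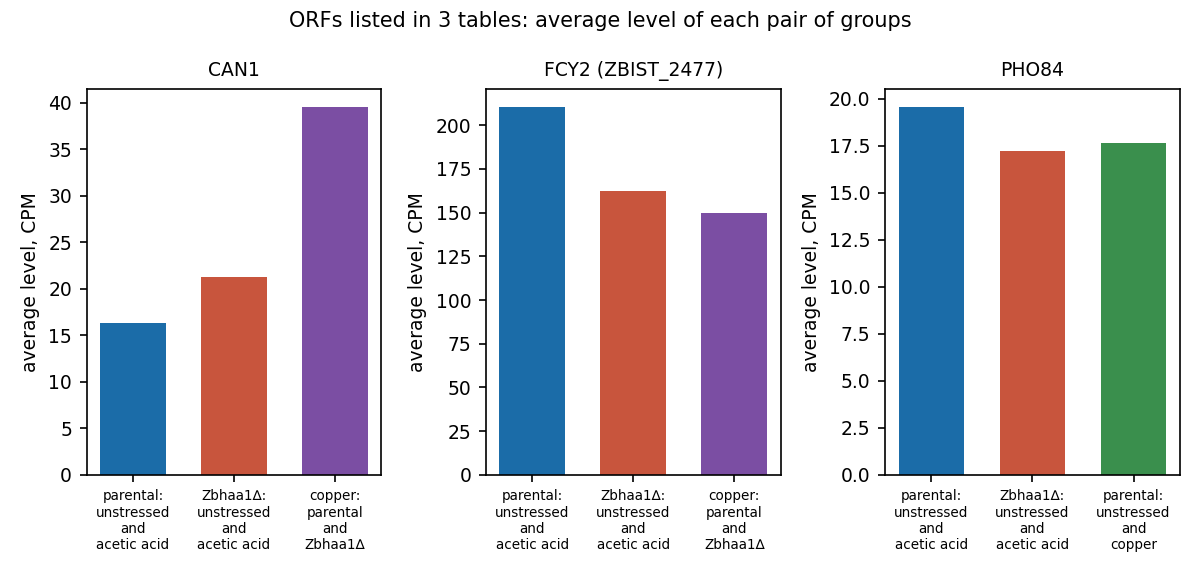
Average level (y axis, CPM, from 0) of the 3 ORFs listed in 3 tables; each bar is the authors' mean over the 2 groups named under it, without error bars since no library values were used. *CAN1* goes from 16.3 to 39.5 CPM and *FCY2* (ZBIST_2477) from 210 to 150 CPM. *PHO84*, which is not listed for both strains in copper, lies between 17.2 and 19.5 CPM.

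Other genes of nitrogen and phosphate supply were taken from lists of homologue names. ORFs listed only for *Zbhaa1*∆ with and without acetic acid have no name and are missing from these lists. Counts of listed ORFs therefore do not compare the strains. Of 25 other ORFs for uptake or vacuolar transport of nitrogen compounds and vitamins, 12 were listed for the parental strain in acetic acid, 6 for *Zbhaa1*∆ in acetic acid, 13 for both strains in copper and 1 for the parental strain in copper. Their median in the parental acetic acid table was 4.19 log2 CPM, below the 5.22 of the 8 members. The ammonium and acetate transporter homologues *ATO2* (ZBIST_3418) and *ATO3* stood at 7.74 and 7.68 log2 CPM there, near *FCY2*, and 3 ORFs were under 3.7 log2 CPM, among them *AGP2*, a permease homologue of the plasma membrane, at 2.57. The 2 listed *UGA4* ORFs, for the GABA permease, were at 4.37 (ZBIST_1158) and 4.30 (ZBIST_3824), close to *PHO84*.

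Of 8 ORFs for regulators and permease trafficking, 4 were listed for each strain with and without acetic acid, 6 for both strains in copper and 2 for the parental strain in copper. The tables that held none of the members listed 2 of them for both strains in acetic acid, *STP3* and the amino acid control factor gene *GCN4*, and 1 for both strains unstressed, *GCN4*. The GATA factor gene *GAT1* stood at 5.41 log2 CPM in the parental and 5.13 in the mutant acetic acid table, a difference of -0.28. *STP3*, a zinc finger factor gene, differed by -0.64 and *BUL1*, the gene of the ubiquitin ligase adaptor, by -0.24. *GSF2*, for an endoplasmic reticulum protein in the export of hexose transporters, differed by -0.10. In the same 2 tables *ATO2* differed by -0.57 (ZBIST_3418) and -0.81 (ZBIST_3419). All 9 ORFs of the lists in both tables had the lower average in the mutant, 6 of them also relative to the shared genes. As deposited, *CAN1* was thus the only ORF with a positive value among the 16 ORFs of the members and lists in both tables. Relative to the shared genes, 4 of the 7 members and 3 of the 9 ORFs of the lists had a positive value.

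All 6 ORFs of a list for nitrogen metabolism were listed for both strains in copper and 0 in either acetic acid table. The list holds *GDH3*, for a glutamate dehydrogenase that makes glutamate from ammonia, so not all of it is catabolism. *GDH3* was the 1 ORF of this list also listed for parental cells with and without copper, at 11.09 log2 CPM. In copper *DAL3* and *DUR1,2*, genes of the breakdown of allantoin and urea, stood at 5.61 and 5.21 log2 CPM, above *DAL5* at 2.36. The arginase gene *CAR1* was at 5.99 and *CAR2*, the next enzyme gene of arginine breakdown, at 5.84. *MIR1*, for the mitochondrial phosphate carrier, was at 10.96 and the acid phosphatase gene *PHO3* at 3.09. The lists hold only names found in the supplementary tables, so nothing is read from these counts of listed ORFs.

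In the reference annotation, 6 of the 20 genes next to a member were listed in any table, and 2 shared a table with their member. In the whole series 1701 ORFs were listed in at least 1 table, beside 5141 annotated protein-coding genes. The count of 6 is therefore not read as a result about neighbours. *CAN1* stood next to a homologue of *LYP1*, the lysine permease, which was listed in copper with an average of 5.21 log2 CPM beside 5.30 for *CAN1*. *OPT1* stood next to *YCT1*, a cysteine transporter homologue, listed in copper at 5.52 log2 CPM but in no table with *OPT1*. *PUT4* shared both acetic acid tables with its neighbour *CIN1*, whose homologue works in tubulin folding. Neighbouring permeases with alike sequence, such as *CAN1* and *LYP1*, or 2 ORFs with 1 homologue name, such as *FCY2*, may share reads, and while the Methods give the overlap mode of HTSeq-count, intersection nonempty, they do not say how reads aligning to several ORFs were treated.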

How the data were processed

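RNA was read with QuantSeq 3' mRNA libraries. As the Methods state, the authors aligned reads to the IST302 sequence with STAR (2.5.2a per the labels), counted them with HTSeq, kept genes with at least 1 CPM in 3 samples of a condition, and used edgeR with TMM scaling for pairs of groups. The log2 CPM averages used here are the values the authors deposited from those comparisons, 1 per gene and table. The tables also hold log2 fold changes and FDR, the authors' own comparisons, which were not used, and list only genes past an FDR of 0.05 and a 1.5-fold change. The sample labels name 5 of the 6 tables. The pair of groups of the table for *Zbhaa1*∆ with and without acetic acid was taken from its name. The paper's captions describe the supplementary lists of 56 and 1301 genes as stressed against unstressed *Zbhaa1*∆ cells. The levels there of *STP3* (5.54) and *BUL1* (7.80) equal those deposited for both strains in acetic acid and in copper. The deposited labelling is followed here.

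Averages were ranked within a table and subtracted or, as CPM, averaged between tables, with Python 3.11.15, pandas 2.3.3, numpy 2.4.6, matplotlib 3.10.9 and scipy 1.17.1, tested on simulated data. No test was made. Homologue names come from the supplementary tables. Named are all members, and ORFs of the lists that share a table with a member or adjoin one. The members and lists were chosen with earlier results of these data known. The assembly behind the files was not named, so the reference annotation served only for neighbours and for the number of protein-coding genes. The tables give no depth per sample, the Methods summarise library sizes over the whole series, and no interval from counting error was computed for the averages. Sequences and promoter motifs were not analysed here.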

Additional observations from a re-analysis of the deposited data

How the results depend on the processing

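No paired analysis was possible because the tables hold 1 average per gene over 2 groups and no value per library; for the same reason no replicate could be left out. Taking off the median difference of all genes in both tables changed the number of members lower in the mutant from 6 to 3 of 7. It turned the sign for *GAP1* (0.021), *BAP3* (0.028) and *MEP3* (0.107) between the strains, for *PHO84* (-0.163) between the parental copper table and the mutant acetic acid table, and for *FCY2* (0.044, ZBIST_2477) between copper and the mutant acetic acid table; in these the median of the shared genes was larger in size than the difference of the member. On the linear CPM scale all 13 differences and the count of 6 keep their direction by construction, since a larger log2 CPM is always a larger CPM. That setting is therefore no check of the directions. The place of a member among the genes of its table was within the exact 95% binomial interval of the main value in 11 of 20 cases among genes with a named homologue, in 10 of 20 among genes in at least 2 tables, and in 18 of 20 among genes of at least 2 log2 CPM. That interval depends on the place and the number of listed genes and holds no replicate error. With named homologues only, every place in the mutant acetic acid table moved. There 135 of 268 genes have a name, against 222 of 297 in the parental one. The mutant table has no counterpart in the supplementary tables, so this setting also drops ORFs that merely lack a printed name. The cut at 2 log2 CPM removes no gene from the parental copper table, so the places in that table could not move. The search for promoter motifs was not run. Low members such as *DAL5*, at 5.12 CPM, have low averages, and no interval was computed for them.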
